A study of Mus musculus with 9 samples.

Results

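The cadherin genes with numbered Cdh symbols and the protocadherin genes with numbered Pcdh symbols, which lie outside the clustered protocadherin arrays, were examined for H3K27me3, a histone mark of genes silenced by Polycomb proteins, laid down by Polycomb repressive complex 2. Every autosomal protein-coding gene whose symbol was Cdh or Pcdh followed only by digits was taken, which gave 33 of 20665 genes, 23 of them named Cdh and 10 named Pcdh. The symbols reach beyond the classical cadherins: Cdh13, Cdh16, Cdh17, Cdh23 and Cdh26 are cadherins of other kinds, and 1 further matching symbol on the X chromosome, Pcdh19, was left out by the rule.

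The mark had been mapped by chromatin immunoprecipitation sequencing in 8 libraries of uncultured bone marrow cells enriched as Lin-Kit+, a fraction rich in hematopoietic stem and progenitor cells, from female transplanted mice. RH cells carried the Dnmt3a fl-R878H/+ allele, in which the mutation depends on Cre, and WT cells were Dnmt3a+/+, and both genotypes were on C57BL/6 and carried Mx1-cre, an interferon-responsive Cre transgene. Mice had received metformin (MET) or vehicle (VEH) for 1 month, which gave the groups RH MET, RH VEH, WT MET and WT VEH with 2 libraries each. By its title the series asks about metformin and the advantage that R878H cells have in competition, and the labels give neither how Cre was induced nor the share of donor cells in the marrow.

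Cadherins are calcium-dependent adhesion proteins. Type I and type II classical cadherins bind their like on a neighbouring cell and are tied to actin inside the cell by catenins, and the switch between cadherins accompanies the passage between epithelial and mesenchymal states. The unclustered protocadherins of the delta-1 and delta-2 classes lack the catenin-binding tail, are expressed mainly in the nervous system and in embryonic tissues, and are known for weak adhesion and for signalling. Polycomb complexes are known to favour CpG-rich promoters of silent developmental genes, and many cadherins are best known from epithelium, muscle, brain or vessels rather than blood.

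Start regions that carried the mark in all 8 libraries and those that carried it in none differed in their median number of CpG dinucleotides. Sequences of the start regions of 5 genes are therefore shown. Each runs from 250 bases before to 50 bases after a transcription start, is taken from RefSeq (GRCm38.p6), and is written 5′ to 3′ on the strand of the gene, with CpG dinucleotides in capitals. The windows lie at chr2:165234688-165234987 on the minus strand (Cdh22), chr3:45378148-45378447 on the plus strand (Pcdh10), chr8:122848124-122848423 on the plus strand (Cdh15), chr8:99416422-99416721 on the minus strand (Cdh8) and chr15:18820079-18820378 on the plus strand (Cdh10).
Cdh22: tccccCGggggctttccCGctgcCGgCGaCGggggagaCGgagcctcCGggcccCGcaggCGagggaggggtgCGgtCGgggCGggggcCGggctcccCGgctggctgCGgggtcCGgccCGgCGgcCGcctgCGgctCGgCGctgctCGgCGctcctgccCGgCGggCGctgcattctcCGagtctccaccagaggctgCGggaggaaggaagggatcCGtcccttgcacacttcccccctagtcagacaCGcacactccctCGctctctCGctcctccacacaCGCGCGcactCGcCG
Pcdh10: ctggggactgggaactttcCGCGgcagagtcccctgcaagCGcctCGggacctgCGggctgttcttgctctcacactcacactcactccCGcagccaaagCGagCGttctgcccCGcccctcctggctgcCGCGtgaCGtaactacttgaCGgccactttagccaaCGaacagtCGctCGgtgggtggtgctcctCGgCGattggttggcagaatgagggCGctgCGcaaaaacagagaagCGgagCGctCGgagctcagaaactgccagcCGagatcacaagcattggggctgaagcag
Cdh15: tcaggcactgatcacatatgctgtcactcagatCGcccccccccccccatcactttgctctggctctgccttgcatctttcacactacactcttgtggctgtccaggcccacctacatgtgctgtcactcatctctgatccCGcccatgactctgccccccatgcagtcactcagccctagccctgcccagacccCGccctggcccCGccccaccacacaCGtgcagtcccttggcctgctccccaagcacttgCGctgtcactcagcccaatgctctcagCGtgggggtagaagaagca
Cdh8: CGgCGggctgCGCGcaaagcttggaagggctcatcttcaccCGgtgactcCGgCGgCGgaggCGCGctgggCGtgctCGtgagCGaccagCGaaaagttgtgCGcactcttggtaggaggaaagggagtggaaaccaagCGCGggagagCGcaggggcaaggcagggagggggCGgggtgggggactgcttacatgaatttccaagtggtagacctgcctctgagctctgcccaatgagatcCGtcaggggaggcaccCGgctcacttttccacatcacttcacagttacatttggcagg
Cdh10: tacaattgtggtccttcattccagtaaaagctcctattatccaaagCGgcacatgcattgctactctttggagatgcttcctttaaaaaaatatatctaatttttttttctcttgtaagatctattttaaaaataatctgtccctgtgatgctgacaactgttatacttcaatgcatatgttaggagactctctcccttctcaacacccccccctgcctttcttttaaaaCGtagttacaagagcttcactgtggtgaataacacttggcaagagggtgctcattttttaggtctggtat
The Cdh22 and Pcdh10 windows hold 38 and 24 CpG and carried the mark in all 8 libraries. The Cdh15 window holds 7 CpG and carried it in all 8 as well. The Cdh8 window holds 21 CpG and carried it in none, and the Cdh10 window holds 2 CpG and carried it in RH MET 1 alone.

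Intervals had been deposited for each library, and a gene counted as called where one of them shared at least 1 bp with its span. Its cover was the percent of the span that lay in intervals. Per library, 22 to 25 of the 33 genes were called. In all 8 libraries 21 were called (63.6%), against 25.4% of all autosomal protein-coding genes, and 25 were called in at least 1 library, against 38.9%. With at least 10% of the span required, 7 members were called in all 8 libraries (21.2%), against 15.1% of all genes, and 14 in at least 1 (42.4%), against 27.7%. Those 7 were Cdh3, Cdh15, Cdh22, Cdh24, Pcdh1, Pcdh8 and Pcdh12. The members are long genes, with a median span of 123 kb against 17.5 kb for all genes, and a longer span is more easily touched by an interval. Of the 17 members of at least 100 kb, 11 were called in all 8 libraries (64.7%), against 52.8% of 2313 genes of that length. Of the 16 shorter members 10 were (62.5%), against 21.9% of 18352 genes. Members and other genes were not matched for length within these 2 classes, and the part of length in these gaps was not tested. The libraries themselves differed: they held 11620 to 16879 intervals over 80.0 Mb (RH VEH 1) to 186 Mb (WT MET 2), the 4 RH libraries covered 80.0 to 155 Mb and the 4 WT libraries 142 to 186 Mb. The part of these totals in the values below was not tested, beyond the settings with equal numbers of intervals and with quantile normalization. The number of reads per library is not known from these files, so that an absent interval does not show an absent mark.

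**Figure D1:**
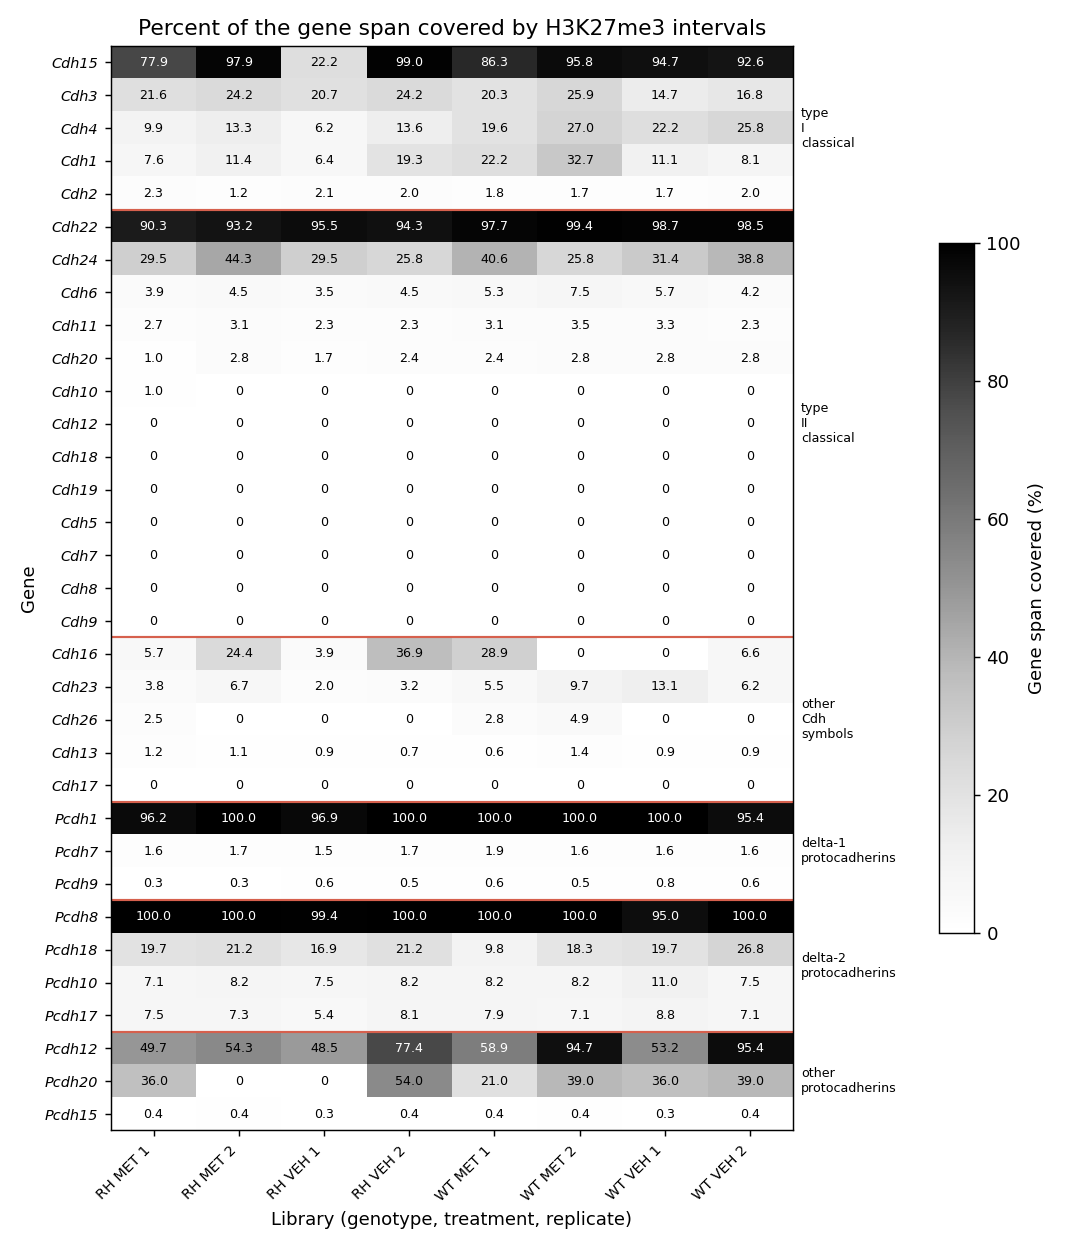
Percent of each gene span covered by H3K27me3 intervals (grey scale, 0 to 100) for the 33 genes (vertical axis, by subfamily) in each of the 8 libraries (horizontal axis), with values printed in the cells. Cdh22, Pcdh1 and Pcdh8 are dark in every library, and 8 genes are at 0 throughout.

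All 5 type I classical cadherins carried the mark in all 8 libraries. Cdh15, the M-cadherin of skeletal muscle (chr8:122848374-122867397), was covered over 77.9% and 97.9% in RH MET, 22.2% and 99.0% in RH VEH, 86.3% and 95.8% in WT MET, and 94.7% and 92.6% in WT VEH. RH VEH 1, the library with the least covered length, lay far below the other 7. The summits at Cdh15 were low, with heights of 8 in RH VEH 1 and 13 to 24 elsewhere, and the height in RH VEH 1 stood at the 18.1th percentile of that library's summits. Summit height is the authors' own value for each interval, without a stated unit, and is used here only to rank intervals within a library.

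Cdh1, the E-cadherin of epithelia (chr8:106603350-106670247), carried an interval across its lower-coordinate end in all 8 libraries, with a summit between the 88.4th and the 94.0th percentile. Its cover was 7.55% and 11.4% in RH MET, 6.35% and 19.3% in RH VEH, 22.2% and 32.7% in WT MET, and 11.1% and 8.15% in WT VEH. The 2 WT MET libraries were the highest of the 8. The interval at the lower end reached 10.1 and 15.5 kb into the gene in WT MET and 4.25 to 7.65 kb in the other 6 libraries. A second, low interval near the opposite end (heights 8 to 13) was present in RH VEH 2 and both WT MET libraries. The difference between WT MET and WT VEH was 17.8 percentage points (SE 5.74) and did not pass the test described below (limma, adjusted p = 0.974), and it was 9.42 with a minimum summit height of 15.

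Cdh2, the N-cadherin of neurons and mesenchyme (chr18:16588877-16809246), was covered over 2.29% and 1.2% in RH MET, 2.11% and 2.02% in RH VEH, 1.84% and 1.75% in WT MET, and 1.65% and 2.02% in WT VEH. All of this cover lay in the uppermost 10% of the span, in 1 interval per library, and the groups overlapped. Cdh3, the P-cadherin of placenta and basal epithelium, ends 46.4 kb below Cdh1 on the same chromosome and was covered over 14.7% to 25.9%. No interval was shared between the neighbours Cdh3 and Cdh1.

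Cdh4, the R-cadherin, named for the retina, spans 457 kb (chr2:179442423-179899377). It was covered over 9.89% and 13.3% in RH MET, 6.21% and 13.6% in RH VEH, 19.6% and 27% in WT MET, and 22.2% and 25.8% in WT VEH. All 4 RH libraries lay below all 4 WT libraries. The interval with the highest summit, at the lower-coordinate end, was present in every library and reached 3.38 to 7.18 kb into the span in the RH libraries and 3.38 to 5.98 kb in the WT libraries. The cover that differed lay in further intervals inside the gene, whose heights were 8 to 21 in RH and 8 to 27 in WT libraries. They numbered 5 and 8 in RH MET, 5 and 7 in RH VEH, 13 and 10 in WT MET, and 8 and 12 in WT VEH. They covered 38.0 and 55.4 kb in RH MET, 24.0 and 58.8 kb in RH VEH, 83.4 and 118 kb in WT MET, and 96.0 and 115 kb in WT VEH.

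The 13 type II classical cadherins fell into both extremes: 5 were called in all 8 libraries, 7 in none, and Cdh10 in 1. Cdh22, a cadherin of brain and pituitary (chr2:165111501-165234924), was covered over 90.3% and 93.2% in RH MET, 95.5% and 94.3% in RH VEH, 97.7% and 99.4% in WT MET, and 98.7% and 98.5% in WT VEH. The genotypes did not overlap here either. Its highest summit lay 0.240 to 1.04 kb downstream of the transcription start and between the 96.6th and the 99.0th percentile of each library. In RH MET 1, RH MET 2 and RH VEH 2 the cover was broken by a gap of 6.80, 6.40 and 7 kb that began 42.3 to 42.9 kb from the lower end. The largest gap was 1.2 kb in RH VEH 1 and 0.800 to 2 kb in the 4 WT libraries. The marked domain also ran on below the span, by 18.9 and 6.10 kb in RH MET, 3.70 and 21.1 kb in RH VEH, and 27.3 to 28.3 kb in the 4 WT libraries.

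The remaining type II genes with the mark carried it in short stretches. Cdh24 was covered over 25.8% to 44.3% of its 10.8 kb, Cdh6, the K-cadherin of kidney, over 3.52% to 7.45%, and Cdh11, the OB-cadherin of osteoblasts and mesenchyme, over 2.28% to 3.45%. At Cdh11 all of the cover lay in the uppermost 10% of the span. Cdh20 was covered over 0.969% to 2.84%, with its highest summit 226 kb downstream of the start, near the far end of the gene, in all 8 libraries, and with a further interval at the promoter window in 7. Cdh10 had a single interval, in RH MET 1, that covered 0.979% of the span with a height of 8, at the 2.17th percentile. Cdh5, the VE-cadherin of endothelium (chr8:104101613-104144504), had no interval in any library, and neither had Cdh7, Cdh8, Cdh9, Cdh12, Cdh18 and Cdh19, most of them cadherins of the nervous system. Of the 5 members on chromosome 15, Cdh6 alone was called in every library.

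Among the cadherins of other kinds, Cdh23, a component of the tip links of hair cells, carried its highest summit 9.50 to 9.74 kb downstream of the start in every library and none at the promoter window. Its cover was 3.76% and 6.70% in RH MET, 2.03% and 3.20% in RH VEH, 5.49% and 9.70% in WT MET, and 13.1% and 6.25% in WT VEH. The genotypes overlapped, through RH MET 2. The interval with the highest summit measured 8 to 9.8 kb in RH and 8.80 to 11 kb in WT libraries, and the rest of the gene added 0 to 17.8 kb in RH and 12.8 to 42.4 kb in WT libraries.

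Cdh13, the glycolipid-anchored T-cadherin, was covered over 1.2% and 1.08% of its 1185 kb in RH MET, 0.945% and 0.675% in RH VEH, 0.557% and 1.40% in WT MET, and 0.945% and 0.878% in WT VEH. Its highest summit lay 144 kb from the lower end in all 8 libraries, and the groups overlapped. Cdh16, the cadherin of kidney tubules, was covered over 5.72% and 24.4% in RH MET, 3.94% and 36.9% in RH VEH, 28.9% and 0% in WT MET, and 0% and 6.61% in WT VEH, and the libraries of RH VEH and of WT MET lay further apart than any pair of group means. Cdh26, a cadherin of epithelia, had a short interval 24.0 to 24.9 kb downstream of its start in 3 libraries. It covered 2.46% and 0% in RH MET, 2.81% and 4.93% in WT MET, and 0% in all 4 VEH libraries, with heights of 13 to 15. Cdh17, the cadherin of liver and intestine, was called in no library.

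**Figure D2:**
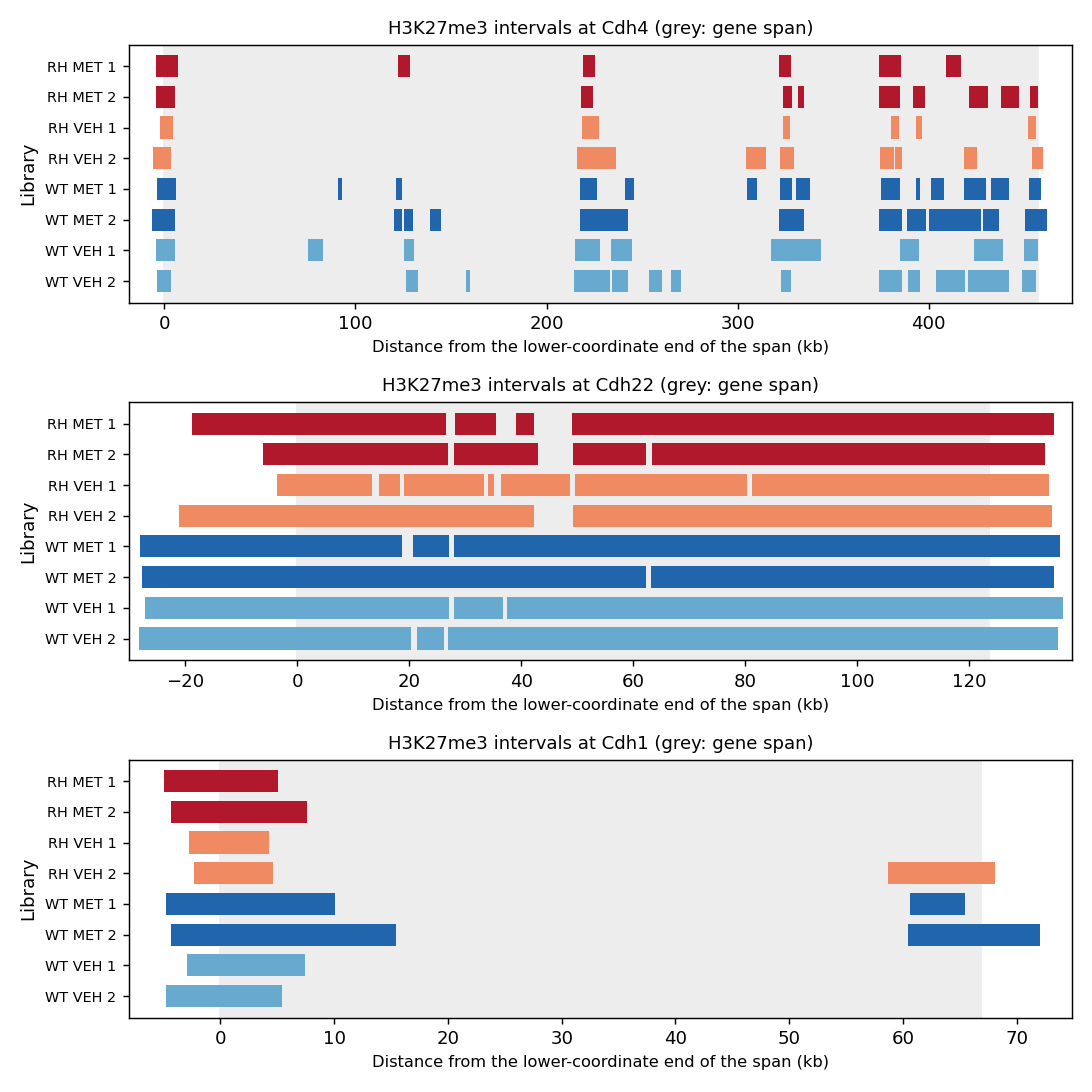
Intervals of each library (coloured bars, by group) across the spans of Cdh4, Cdh22 and Cdh1 (grey), with the distance from the lower-coordinate end in kb on the horizontal axis and the libraries on the vertical axis. At Cdh4 every library shares the interval at 0 and the WT libraries hold more intervals inside the gene. At Cdh22 a gap near 42.3 to 49.3 kb is seen in RH VEH 2 and both RH MET libraries.

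Of the 10 protocadherins, 9 were called in all 8 libraries. In the delta-1 class, Pcdh1, a protocadherin of airway and skin epithelium (chr18:38185914-38212048), was covered over 96.2% and 100% in RH MET, 96.9% and 100% in RH VEH, 100% in both WT MET libraries, and 100% and 95.4% in WT VEH. Its summits had heights of 55 to 124 and stood between the 98.5th and the 99.7th percentile, the highest median percentile of the 25 members called. The intervals over it were 42.2 to 72.2 kb wide at the widest, beyond its own 26.1 kb. Pcdh7, a protocadherin of brain and heart (chr5:57716145-58133236), was covered over 1.6% and 1.74% in RH MET, 1.5% and 1.69% in RH VEH, 1.88% and 1.6% in WT MET, and 1.64% and 1.64% in WT VEH. That cover was 1 interval per library in the first 10% of the gene, with the summit 0.576 to 2.34 kb downstream of the start, and no group stood apart. Pcdh9, a protocadherin of brain, was covered over 0.318% and 0.250% in RH MET, 0.569% and 0.478% in RH VEH, 0.614% and 0.550% in WT MET, and 0.751% and 0.573% in WT VEH, all in the first 10% of its 879 kb. The 2 RH MET libraries were the lowest of the 8.

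In the delta-2 class, Pcdh8, a protocadherin of paraxial mesoderm and synapses (chr14:79766772-79771312), was covered over 100% in 6 libraries, 99.4% in RH VEH 1 and 95.0% in WT VEH 1. Its span of 4.54 kb lay wholly within an interval 16.2 to 20.0 kb wide in the 6 libraries with full cover, and the interval ended short of the lower end of the span in the other 2. Pcdh10 and Pcdh17, protocadherins of brain, were covered over 7.13% to 11% and 5.36% to 8.76%. At Pcdh17 all of the cover lay in the first 10% of the gene, and at Pcdh10 90.6% to 100% of it did. Pcdh18 was covered over 9.81% to 26.8% of its 14.1 kb.

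The other protocadherins differed more between libraries. Pcdh12, a protocadherin of endothelium (chr18:38267092-38284401), lies 55 kb above Pcdh1 and shared no interval with it. It was covered over 49.7% and 54.3% in RH MET, 48.5% and 77.4% in RH VEH, 58.9% and 94.7% in WT MET, and 53.2% and 95.4% in WT VEH. Each of the 4 groups but RH MET held libraries more than 20 percentage points apart, and the groups overlapped. Pcdh20 was covered over 36% and 0% in RH MET, 0% and 54.0% in RH VEH, 21.0% and 39.0% in WT MET, and 36% and 39.0% in WT VEH. It was called in 6 libraries with heights of 9 to 15 and a median percentile of 26.9, the second lowest of the 25 members called after Cdh10. Pcdh15, the partner of Cdh23 in the tip link, was covered over 0.360% and 0.407% in RH MET, 0.335% and 0.360% in RH VEH, 0.360% and 0.399% in WT MET, and 0.253% and 0.368% in WT VEH. Its summit lay at -723 to -722 kb from the RefSeq start used here, upstream of it and at the lower end of the span, in all 8 libraries. That start lies far inside the span, which begins at chr10:73096277, whereas the promoter window begins at 73821617. The gene is on the plus strand, so that the lower end is the 5′ end of its span, and all of the cover lay in the first 10% of the span.

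**Figure D3:**
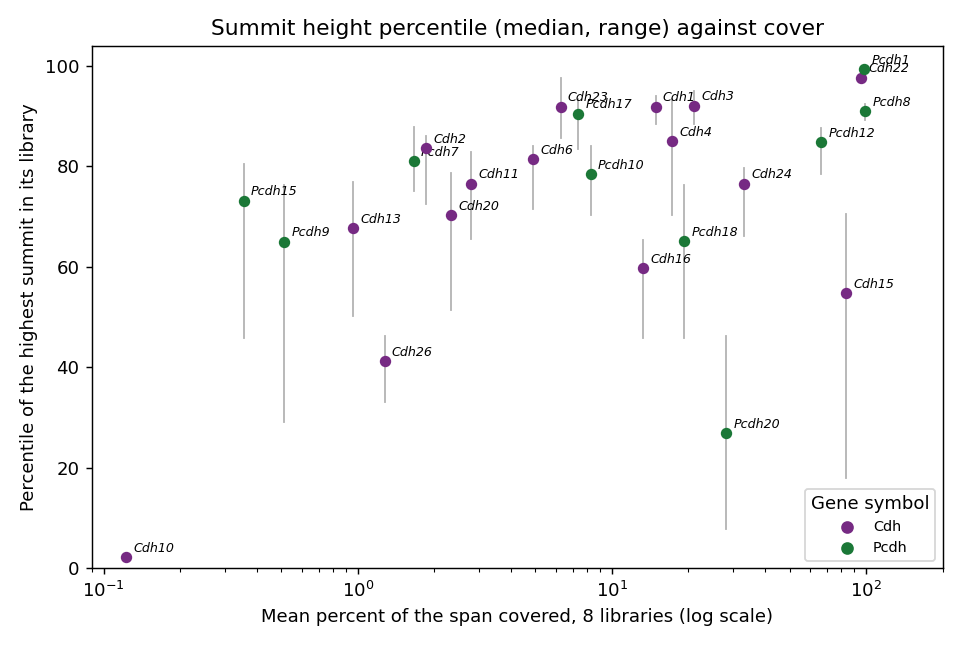
Percentile of the highest summit in a gene among the summits of its library (vertical axis; point, median over the libraries that called the gene; line, range) against mean percent of the span covered (horizontal axis, log scale) for the 25 called members, coloured by symbol. Pcdh1 and Cdh22 are high on both axes, while Cdh15 and Pcdh20 combine cover of 83.3% and 28.1% with median percentiles of 54.7 and 26.9.

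Position within the gene was read against RefSeq starts for the 21 members that the promoter table holds. The window was called in all 8 libraries for 10 of them (47.6%), against 19.5% of 16457 autosomal protein-coding genes. The 10 windows had a median of 20.5 CpG, from 7 to 38, and the 8 windows called in no library a median of 8.5, from 4 to 21. Over all genes the corresponding medians were 20 and 12, and that of all windows was 14. Among the 8 windows called in no library, those of Cdh12, Cdh18 and Pcdh15 lie far inside the gene. They begin at 21111202, 23036213 and 73821617, against spans from 20448878, 22548898 and 73096277 (plus strand). They hold 9, 12 and 8 CpG, and the interval at the 5′ end of the Pcdh15 span, present in all 8 libraries, is not counted at its window. Of the 10 member windows with at least 14 CpG, 7 were called in all 8 libraries (Cdh22, Cdh24, Pcdh8, Pcdh9, Pcdh10, Pcdh17 and Pcdh18). Those of Cdh7 and Cdh8 were called in none. Among the 11 windows with fewer, 3 were called in all 8 (Cdh6, Cdh15 and Pcdh7). These counts are of windows: by their spans Cdh20 (18 CpG), Cdh23 (5 CpG) and Pcdh15 (8 CpG) were called in all 8 libraries as well. For all genes the shares called in all 8 libraries were 25.9% of windows with at least 14 CpG and 12.8% of windows with fewer. The counts were made on the letters CG, which read the same on both strands, and are a description across genes, which are not independent replicates.

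**Figure D4:**
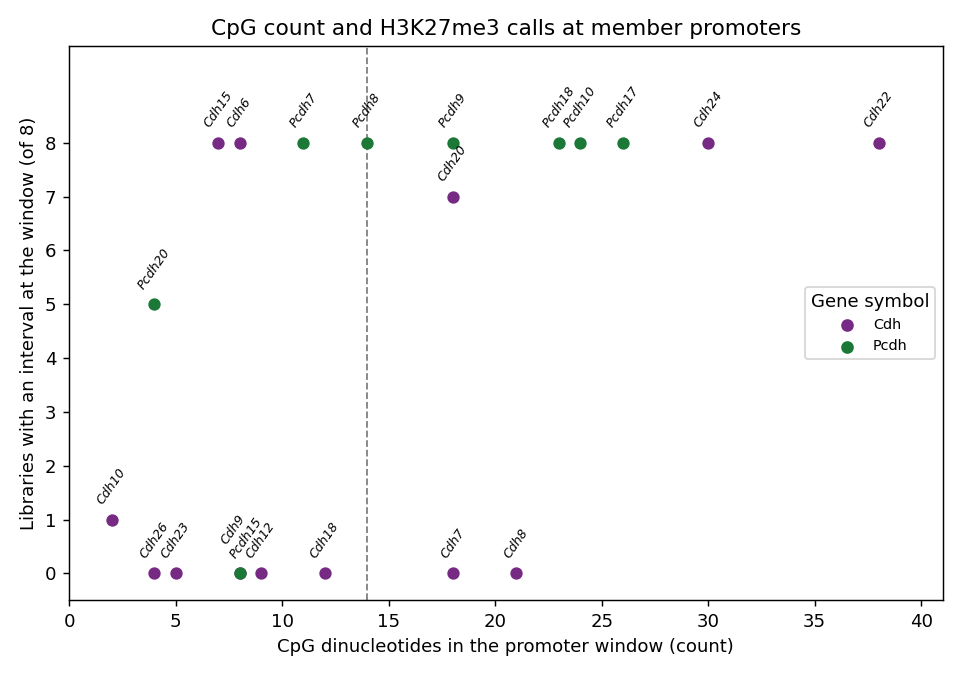
Number of libraries with an interval at the promoter window (vertical axis, of 8) against CpG dinucleotides in that window (horizontal axis, count) for the 21 members in the promoter table. The dashed line marks 14, the median of all promoter windows; Cdh7 and Cdh8 lie to its right with no interval, and Cdh6, Cdh15 and Pcdh7 to its left with an interval in all 8 libraries.

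Genotypes and treatments were compared over libraries. Cover was fitted with limma across the 8038 genes called in at least 1 library, with 1 mean per group and Benjamini-Hochberg adjustment over all genes tested. Nothing in the labels says that replicate libraries stem from different mice, so that the p-values reflect the spread of these libraries alone, which may be technical. No member passed an adjusted p of 0.05 in the 4 comparisons of 2 groups or in the 2 comparisons over 4 libraries against 4. A miss does not show equal cover. In simulated data the same fit, over 4 RH against 4 WT libraries, missed most of the changes added to genes of intermediate cover. That held at every size tried, with the fewest missed at the largest. The simulation does not bear on Cdh1. It changed no gene of so low a mean cover (14.9%) and scored no comparison of 2 libraries against 2. Whether the Cdh1 difference between WT MET and WT VEH is a true one cannot be told from these libraries. The limma test called 0.174% of all genes in RH VEH against WT VEH, 0.211% in RH MET against RH VEH, 0.261% in WT MET against WT VEH, 0.411% in RH MET against WT MET, 0.560% in RH against WT and 0.448% in MET against VEH. At an unadjusted p under 0.05, 2, 1, 2, 3, 2 and 1 of the 25 members called were found in these comparisons in the same order, beside 4.54%, 3.11%, 4.29%, 4.99%, 6.88% and 4.52% of all genes. With 1 library left out, Pcdh8 passed only without WT VEH replicate 2 and Cdh22 only without RH MET replicate 2, in fits where a group rests on a lone library. For Pcdh8 that library was WT VEH 1, covered over 95.0% where the other libraries held 99.4% to 100%. For Cdh22 it was RH MET 1, the lowest of the 8 at 90.3%.

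Between the genotypes, 2 of the 25 members, Cdh4 and Cdh22, had lower cover in all 4 RH libraries than in all 4 WT libraries, and none had higher cover. Over all 8038 genes 3.14% were lower in this sense and 0.174% higher. Cdh4 averaged 10.7% ± 3.46 in RH and 23.7% ± 3.42 in WT (SD, n = 4 each). The difference was -12.9 percentage points (SE 2.85; limma, adjusted p = 0.413), and -6.02 with a minimum summit height of 15. Cdh22 averaged 93.3% ± 2.23 in RH and 98.6% ± 0.666 in WT (SD, n = 4 each). Its difference was -5.27 percentage points (SE 0.810; limma, adjusted p = 0.176), it was -14.0 with a minimum summit height of 15, and it turned to 0.703 after quantile normalization of cover between libraries and passed the limma test without RH MET replicate 2 (adjusted p = 0.0330). Cdh4 kept its direction there, at -8.22 percentage points, but its genotypes overlapped when every library was given the same number of intervals, and both genes' genotypes overlapped when only intervals with a summit height of at least 15 were kept. These 2 genes were singled out because their genotypes did not overlap, so no further test of that separation is given. Cdh23 averaged 3.92% ± 1.99 in RH and 8.63% ± 3.50 in WT (SD, n = 4 each), with overlap and a difference of -4.71 percentage points (SE 2; limma, adjusted p = 0.754).

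Members and genes at large were set side by side. The median difference, RH minus WT, was -0.638 percentage points over the 25 members and -1.17 over all genes tested, and after quantile normalization the medians were 0.737 and 0.473. By number, 17 members were lower and 8 higher in RH than in WT, beside 5547 lower and 2449 higher of the 8038 genes. After that normalization 7 members were lower and 18 higher, beside 2984 and 5052 genes.

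For metformin, no member had higher or lower cover in all 4 MET libraries than in all 4 VEH libraries, against 1.07% of all genes higher and 0.0995% lower. The median difference, MET minus VEH, was 0.245 percentage points over the members and 0.470 over all genes, and after quantile normalization the medians were -1.26 and -0.499. Cdh26 was called in both WT MET libraries and neither WT VEH library, the only member that separated 2 groups by its calls, where 2.13% of genes did so in this direction, and none had its calls in WT VEH (0.494% of genes). In cover Cdh26 averaged 3.87% ± 1.49 in WT MET and 0% ± 0 in WT VEH (SD, n = 2 each), a difference of 3.87 percentage points (SE 1.07; limma, adjusted p = 0.904) and 2.46 with a minimum summit height of 15, and the exact test of 2 libraries against 2 cannot go below 0.333. No member was called in both libraries of a group and neither of the other in RH VEH against WT VEH (0.464% of genes with the calls in RH VEH, 2.43% in WT VEH), in RH MET against RH VEH (3.07% in RH MET, 0.189% in RH VEH) or in RH MET against WT MET (0.945% in RH MET, 1.93% in WT MET). The metformin effect in RH minus that in WT passed the test for no member, against 0.386% of all genes, and for Pcdh8 without WT VEH replicate 2 (limma, adjusted p = 0.0212). For Cdh1 it was -21.1 percentage points (SE 8.11; limma, adjusted p = 0.981), the member with the smallest unadjusted p.

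**Figure D5:**
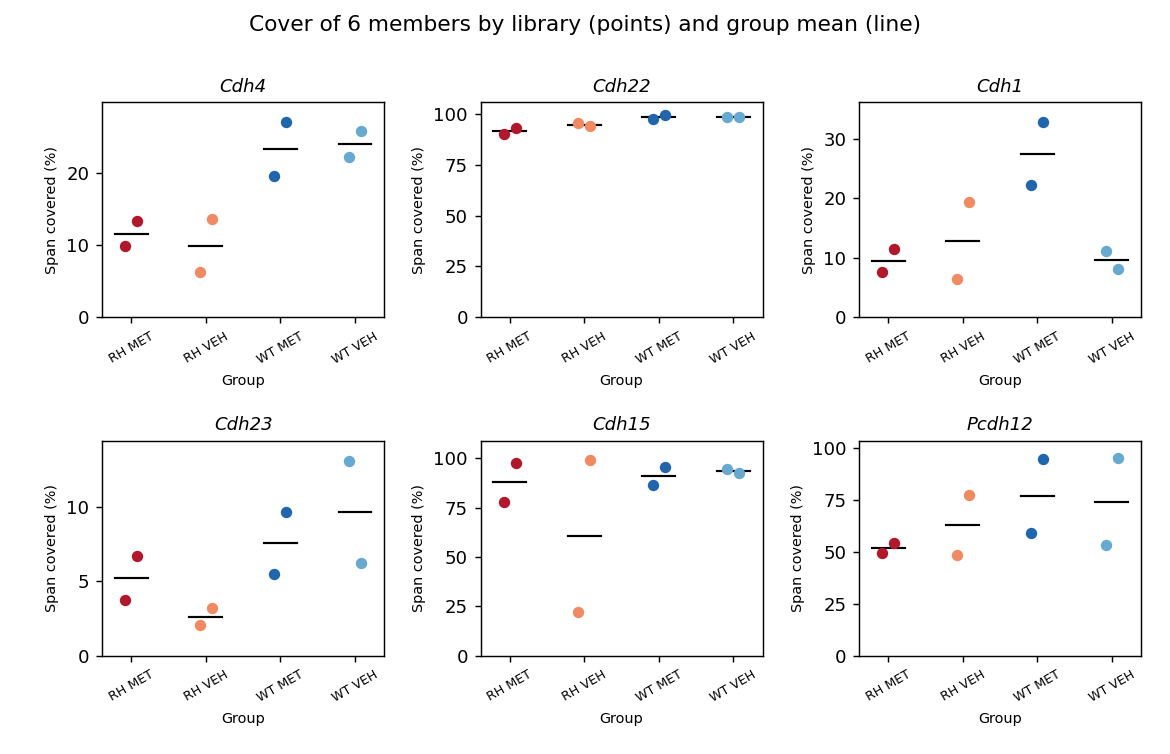
Percent of the span covered (vertical axes, from 0) for Cdh4, Cdh22, Cdh1, Cdh23, Cdh15 and Pcdh12, with 1 point per library and a line at the mean of each group of 2. The RH points of Cdh4, between 6.21% and 13.6%, lie below the WT points, between 19.6% and 27%, whereas for Cdh1 the WT MET points stand highest.

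The partners and relatives of these genes were marked to different degrees. Of 15 catenins and junction partners, 9 were called in all 8 libraries, 3 in some and 3 in none. Ctnnb1 and Ctnnd1, the beta and p120 catenins that bind classical cadherin tails, and Vcl, the actin-linker vinculin, had no interval, while Jup, plakoglobin, was covered over 18.1% to 30.5%. Of 9 repressors of Cdh1 transcription, 5 were called in all 8 libraries: Snai1, Snai2, Snai3, Twist1 and Twist2, with Twist1 at 100% throughout, whereas Zeb1 and Tcf3 had no interval. Of 9 desmosomal cadherins, 2 were called in all 8 libraries (Dsg2 and Dsc2) and 6 in none. Those shares, 22.2% and 66.7%, lie near those of all genes. Of 18 atypical and large cadherins 13 were called in all 8, among them Celsr3, a planar polarity cadherin covered over 86.8% to 95.7%. No gene of these 4 lists passed the cover test in the 6 comparisons. By calls, Ctnna1, Clstn3 and Dchs2 separated RH MET from RH VEH (3.07% of genes did so). Dsc3 and Tcf4 separated WT MET from WT VEH (2.13%). Each had its calls in MET, and no list gene had the reverse. Between RH MET and WT MET, Dchs2 had its calls in RH MET (0.945%) and Dsc3 in WT MET (1.93%). Clstn1 had higher cover in all 4 MET than in all 4 VEH libraries (1.07%).

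Markers of the cells at hand and of other cells were read in the same way, as a description, since the mark is repressive. The counts stand beside the same shares of all genes, 25.4% called in all 8 libraries and 61.1% in none. Of 10 progenitor markers 3 were called in no library (Ptprc, Runx1 and Lmo2), 4 in some and 3 in all 8 (Gata2, Tal1 and Flt3). Kit, the receptor by which the cells were enriched, was covered over 0% to 0.996% in RH libraries and 5.89% to 8.58% in WT libraries, a difference of -6.99 percentage points (limma, adjusted p = 0.0401), and its part in the values of the members was not tested. All 5 stromal and all 4 epithelial markers were called in all 8 libraries, 1 of 6 endothelial markers was (Kdr) with Cdh5, Pecam1, Tie1 and Emcn at 0, and none of 4 mast cell and basophil markers was called.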

How the data were processed

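H3K27me3 intervals of 8 libraries, 2 per group, were analysed, and 1 input library was not used here. Per the file headers the authors deposited intervals per library and 1 summit per interval on mm10, whose value is a score, the summit height, with no stated unit. Per the submitters' processing notes, BWA 0.7.12 and bcl2fastq 2.20 were used with mm10, their roles unstated, and no caller of the intervals is given in the sources used here. Gene spans came from RefSeq (GRCm38.p6), and of 33 members 21 matched its promoter table. The most upstream window of that table was used, which for some genes lies far inside the span. The table of gene spans gives no strand, so other members are described by their lower- and upper-coordinate ends.

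Cover per gene and library was computed in Python 3.11.15 and fitted in R 4.3.3 with limma 3.58.1 (trend) over 8038 genes, with an adjusted p threshold of 0.05. The fit was first tried on simulated data, where it missed most of the changes added at every size tried. Values in every library are given for the 5 highest and the 5 lowest members by mean cover, the 5 with the widest range, any that separated groups, and Cdh1, Cdh2, Cdh5, Pcdh7 and Pcdh12. Cdh4 and Cdh23 were added after their values were seen. Members and lists were chosen with earlier results of these data known. Alternatives were a minimum summit height of 15, equal numbers of intervals (11620), at least 10% of the span, spans extended by 5 kb, quantile normalization, an arcsine square root, no filter, a replicate block and each library left out.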

Additional observations from a re-analysis of the deposited data

How the results depend on the processing

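With at least 10% of the span required, 7 members were called in every library, 14 in at least 1, and 0 separated WT MET from WT VEH. With a minimum summit height of 15, 1 member, Cdh13, separated RH VEH from WT VEH with its calls in WT VEH, and 1, also Cdh13, separated RH MET from RH VEH with its calls in RH MET, Cdh26 no longer separated WT MET from WT VEH (0), and 1 member, Pcdh9, was lower in all RH than in all WT libraries. Settings for this last count were chosen after seeing the data: it was 1 with equal numbers of intervals (Cdh22) and 4 with spans extended by 5 kb (Cdh22, Cdh4, Cdh24 and Cdh6), where 1 member (Pcdh8) was higher in all MET than in all VEH libraries. For separations and for cover without overlap, the shares of all genes under these settings, or with a library left out, are not given here. Whether those counts of members exceed the shares of genes at large cannot be told. The Cdh22 difference between RH and WT turned to 0.703 percentage points under quantile normalization, and the cause was not tested.

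Leaving out 1 library at a time gave 21 to 21 members called in every library and 24 to 25 in at least 1. Members separated by calls numbered 0 to 1 in RH VEH and 0 to 1 in WT VEH, 0 to 2 in RH MET and 0 to 0 in RH VEH, 1 to 1 in WT MET and 0 to 0 in WT VEH, and 0 to 1 in RH MET and 0 to 2 in WT MET, in the 4 comparisons. Without overlap of cover, 0 to 1 were higher and 2 to 3 lower in RH than in WT, and 0 to 1 higher and 0 to 0 lower in MET than in VEH. The cover test called 0 to 1 member in 5 comparisons and 0 to 0 in RH MET against RH VEH. The calls were Pcdh8 without WT VEH replicate 2 (4 comparisons, and the metformin effect in RH minus that in WT) and Cdh22 without RH MET replicate 2 (RH MET against WT MET, and RH against WT with an adjusted p of 0.0330). Leaving out a library left a group with a lone library, assumed to vary like the others, and all-gene calls between RH and WT then were 123 to 279, against 45 with all libraries. Differences ranged from -14.8 to -11 for Cdh4, from -6.00 to -4.54 for Cdh22, from 12.6 to 23.1 for Cdh1 and from 2.81 to 4.93 for Cdh26, the last 2 between WT MET and WT VEH. Keeping only summits of at least 15 gave -6.02, -14.0, 9.42 and 2.46 in that order.

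Same-numbered libraries of 2 groups correlated by -0.0234 to 0.166 in their deviations from group means, so the numbers were not taken to pair the libraries. With the replicate block 0 members passed in any comparison, and all-gene calls were 5 to 30. Over the settings that kept all libraries, all-gene calls were 5 to 22 in RH VEH against WT VEH (14 as reported), 11 to 32 in RH MET against RH VEH (17), 12 to 48 in WT MET against WT VEH (21), 21 to 54 in RH MET against WT MET (33), 30 to 55 in RH against WT (45) and 15 to 59 in MET against VEH (36). The other settings left the counts of members called, separated, without overlap or past the adjusted threshold within 1.5 times of those reported. Within that margin, members called in every library fell from 21 to 15 with a minimum summit height of 15, and the share of all genes under that setting is not given here. Depth in reads is unknown.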
